A study of Mus musculus with 22 samples.

Results

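The regions described here are stretches of mouse chromatin carrying histone H3 trimethylated at lysine 9 (H3K9me3) that lie in gene deserts. They were taken from the authors' deposited tables of H3K9me3 regions. A region was included when its midpoint was more than 100 kb from every protein-coding or lncRNA gene extent of the mm10 genome, on chromosomes 1 to 19 without chromosome 8. This gave 11974 of 68845 regions, or 17.4% of the tables, and left 45363 other regions on the same chromosomes. The rule used position alone and no read number. The region just inside the limit, chr14:88163538-88165859, lay 100036.5 bp from Gm33203 with a mean of 85.6 normalized reads. The region just outside it, chr5:26717191-26717529, lay 99997 bp from Dpp6 with a mean of 12.9.

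H3K9me3 is the classic mark of heterochromatin. It is written by methyltransferases of the SETDB1 and SUV39H families and bound by HP1 proteins, and it covers satellite repeats, silenced retroelements and broad gene-poor domains. During reprogramming of fibroblasts to pluripotency, domains of H3K9me3 are known to limit the access of the reprogramming factors to their sites. Acetylation of lysine 27 on the same histone (H3K27ac) marks active promoters and enhancers and is usually found on other nucleosomes than H3K9me3.

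The study used chromatin immunoprecipitation with sequencing (ChIP-seq) on cells reprogrammed from C57BL/6 mouse embryonic fibroblasts, among them 3 induced pluripotent stem (iPS) lines. The OSKM line was made with the factors Oct4, Sox2, Klf4 and c-Myc. For the C2 line, Oct4 was replaced by the zinc-finger artificial transcription factors ZFATF1, ZFATF2 and ZFATF3, and for the C3 line by ZFATF1, ZFATF2 and ZFATF4, each together with c-Myc, Klf4 and Sox2. All 3 iPS lines grew on gelatin with LIF, were given 100 nM 4-hydroxytamoxifen and were fixed with formaldehyde, and each had 2 libraries per histone mark. Each factor set was thus seen in a single line, and the labels do not say how the replicates were made, so p-values measure only the spread between these libraries. Antibodies to the HA tag were used on C2+SKM cells at day 20, which still expressed the artificial factors and were not fully reprogrammed, and on Empty+SKM cells, with 2 libraries each. C2 and OSKM shared a pair of input controls while C3 had its own, so the input cannot be told apart from the line in any comparison with C3. An H3K27ac peak lay within 2500 bp of the start of 7 of 7 pluripotency genes in both libraries of every line. For 6 fibroblast genes the same was true of 0 in C2, 2 in C3 (Thy1 and Prrx1) and 1 in OSKM (Col1a1).

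Reads kept per H3K9me3 library numbered 29264090 to 46304808, and the gene-desert regions held 521879 to 1203207 reads per library. In all 6 libraries, 1044 of the gene-desert regions (8.72%) sat at 1 read, the lowest value of the tables, against 8.11% of the other regions. No difference could be detected in these. They had been called as peaks in a median of 3 libraries, and 46 of them in all 6. The value of 1 read is net of any subtraction of control reads, and why called peaks sat at it was not tested. Where a library is said below to hold 1 read, it had this lowest value.

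Gene deserts held more H3K9me3 regions per megabase than the rest of these chromosomes, and fewer H3K27ac regions. Between the first and last gene of each chromosome, 370.3 Mb lay more than 100 kb from any gene, or 16.02% of that span, with assembly gaps not removed. H3K9me3 regions numbered 32.2 per Mb there and 23.3 per Mb elsewhere. H3K27ac regions from the companion tables numbered 14.6 per Mb there and 61.6 per Mb elsewhere. The density ran from 24.2 per Mb of desert on chromosome 19 to 40.3 on chromosome 9. Chromosome 1 held most regions (1499), followed by chromosome 3 (1266), while chromosome 19 held 144. On chromosome 7 the deserts (28.3 per Mb) and the rest (28.6 per Mb) were almost equally dense.

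The regions were short and clustered. Their median width was 1078.5 bp (977 bp for the other regions), with a range from 199 to 26987 bp, and together they covered 20.2 Mb. At least 5 kb wide were 724 (6.05%, against 6.17%). The median distance to the nearest gene was 232743 bp. The median gap to the next gene-desert region was 12917.5 bp, and 8276 (69.1%) lay within 10 kb of another. Of 1120 deserts wider than 200 kb, 901 held at least 1 region, with a median of 4.

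Few of these regions overlapped any other annotation. A pseudogene, small RNA or similar feature touched 454 (3.79%, against 3.51% of the other regions), and 204 of these were pseudogenes and 12 small nuclear or nucleolar RNAs. No miRNA overlapped any of them. Immune receptor segments are neither protein-coding nor lncRNA genes in the RefSeq annotation, so their arrays counted as desert. For this reason 222 regions lay within 100 kb of such a segment, 125 on chromosome 6, 52 on chromosome 12 and 45 on chromosome 14.

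Peaks of H3K9me3 were called at gene-desert regions about as often as at others. No region of either kind had a peak in 0 or only 1 of the 6 libraries. The shares and the test below thus describe regions already chosen by these same peaks, and cannot tell how often gene deserts as such carry a peak. In the C2 libraries 61.1% and 57.4% of the gene-desert regions overlapped a peak, in C3 84.5% and 50.8%, and in OSKM 86.4% and 90.1%. The share thus differed more between the C3 replicates than between the means of the lines. All 6 libraries had a peak at 4546 (37.97%, against 36.2% of the other regions). Within each library, the share minus that of the other regions averaged 1.04 percentage points and was above 0 in 5 of 6 libraries (exact two-sided sign-flip permutation test, p = 0.09375, adjusted over 4 such tests p = 0.125). Both OSKM libraries and no other had a peak at 914 (7.63%, against 7.94%), both C3 libraries and no other at 138 (1.15%, against 0.990%), and both C2 libraries and no other at 10 (0.0835%).

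Recovered H3K9me3 reads per kb of region were lower in gene deserts in every library. The median of recovered reads per kb was 29.2 and 21.3 in C2 (34.8 and 27.5 for the other regions), 48.0 and 23.0 in C3 (55.2 and 26.2), and 35.0 and 42.0 in OSKM (48.0 and 56.3). These reads are not scaled for depth, so only the pairs within a library can be compared. The log2 ratio of gene desert to other was -0.32 ± 0.12 (SD, n = 6 libraries), with a range from -0.46 to -0.19. It was below 0 in 6 of 6 libraries (exact two-sided sign-flip permutation test, p = 0.03125, the smallest that 6 libraries allow), but after adjustment over the 4 tests this did not pass 0.05 (permutation test, adjusted p = 0.0625). The ratio was nearest 0 in the C3 libraries and farthest from 0 in the OSKM libraries.

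The share of all H3K9me3 region reads that fell in gene deserts was highest in C3 and lowest in OSKM. It was 17.2% and 16.4% in C2, 18.4% and 18.2% in C3, and 15.4% and 15.5% in OSKM, counted on the same 18 chromosomes, and no lines overlapped. The means were 16.8% ± 0.556 (SD, n = 2), 18.3% ± 0.167 and 15.5% ± 0.0679. C3 exceeded OSKM by 2.85 percentage points and C2 exceeded OSKM by 1.34, while C2 minus C3 was -1.51. An exact two-sided permutation test gave p = 0.333 for each pair, the smallest that 2 against 2 libraries allow, so the design cannot place these differences past 0.05. With the highest 1% of regions left out, C2 exceeded OSKM by 0.839 points and their libraries overlapped (20.48% and 19.03% against 18.76% and 19.06%). With distance measured from protein-coding genes alone, the order of the lines turned around, with C3 minus OSKM at -3.68 points and C2 minus OSKM at -2.40.

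**Figure D1:**
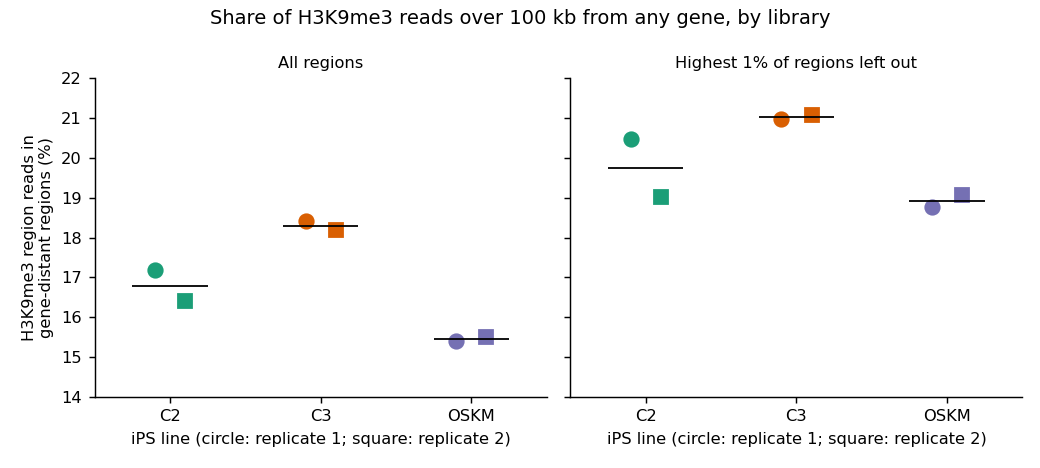
Percent of H3K9me3 region reads on chromosomes 1 to 19 without 8 that fell in gene-desert regions, one point per library for C2, C3 and OSKM with a line at the mean, for all regions (left) and with the highest 1% left out (right). On the left the C3 libraries (18.4% and 18.2%) sit above the C2 libraries (17.2% and 16.4%), and both OSKM libraries (15.4% and 15.5%) sit below them.

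Part of this share came from a pair of regions at the very start of the assembled chromosome 9, before its first gene, 4930433N12Rik. The regions chr9:3011390-3038376 (26987 bp, the widest of all) and chr9:3000004-3005348 (5345 bp) together held 5.11% and 4.00% of the gene-desert reads in C2, 2.76% and 3.28% in C3, and 7.52% and 8.21% in OSKM. H3K9me3 peaks were called at them in 5 and 4 of the 6 libraries. HA peaks covered all 26987 and all 5345 bases in each of the 4 HA libraries, Empty+SKM included. Their signal was thus not limited to the H3K9me3 antibody, and the reason was not tested. At the wider one the normalized reads were 17535 and 20305 in C3 and 48193 and 53741 in OSKM. The C3 libraries were both far below the OSKM libraries, with a log2 fold change of -1.43 ± 0.20 (SE, limma, adjusted p = 7.26e-07). At the narrower one they were 8708 and 9625 against 22835 and 25637 (-1.40 ± 0.16, limma adjusted p = 6.15e-07). In the C2 table the wider region had 27434 and 19193 normalized reads in C2 against 43203 and 49093 in OSKM, and that difference did not pass the test (log2 fold change -1.01, limma adjusted p = 0.786). The narrower one had 14446 and 9928 against 20471 and 23420 (-0.87, limma adjusted p = 0.623). Without this pair of regions the share of gene-desert reads in C3 exceeded that in OSKM by 3.43 points, and that in C2 by 1.74.

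Apart from the start of chromosome 9, the highest gene-desert regions were broad. The region chr2:116531619-116545597 (13979 bp, nearest gene Gm13990) had a mean of 1457 normalized reads. The next, chr4:18467745-18484219 (16475 bp, nearest gene Cnbd1, over the pseudogene Gm11853), was lower in C3 than in OSKM by a log2 fold change of -0.36 (limma adjusted p = 0.0275). The authors' deposited table gives FDR 0.281 for that difference. The region chr1:5341923-5350814 (8892 bp) lies between Atp6v1h, a subunit of the vacuolar proton pump, and Oprk1, the kappa opioid receptor. It had 1236 and 1239 normalized reads in C3 against 1302 and 1297 in OSKM, and 1099 and 889 in C2 against 1168 and 1184. Neither difference passed the test (limma adjusted p = 0.763 and 0.461). The widest region away from chromosome 9, chr14:85519111-85535813 (16703 bp, 645 kb from Gm32729), had 712 and 671 normalized reads in C3 against 649 and 716 in OSKM and 590.4 and 578 in C2 against 582 and 654. The third widest, chr4:96937847-96954375 (16529 bp, nearest to Gm34053), had 1070.2 and 1039 in C3 against 1025 and 1018, and 961 and 615 in C2 against 919 and 929.7. None of these differences passed the test.

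The regions farthest from genes lay in the desert between D3Ertd751e and 2610316D01Rik on chromosome 3. The farthest with a peak in all 6 libraries, chr3:43539435-43542183 (2749 bp), lay 1737.502 kb from the nearest gene. It had 33.2 and 55.8 normalized reads in C2 against 32.4 and 36.0 in OSKM, and 43.1 and 33.4 in C3 against 36.1 and 39.4, so the lines overlapped. The log2 fold changes were 0.33 and 0.01, and neither passed the test. Of the next 4, chr3:43515514-43516536 had 87.0 and 72.9 normalized reads in C3 against 59.9 and 57.9 in OSKM. At chr3:43612171-43613869 the values were 83.7 and 107 in C2 against 123 and 135 in OSKM, and at chr3:43680322-43681913 they were 102 and 83.6 against 81.0 and 57.3. None of these 3 differences passed the test (limma adjusted p = 0.465, 0.392 and 0.487). Nor did the other comparison with OSKM at each region (limma adjusted p = 0.858, 0.973 and 0.176). At chr3:43515514-43516536 C2 had 63.1 and 55.8 against 53.7 and 52.9. In C3 the values were 153 and 135 against 137 and 148 at chr3:43612171-43613869. At chr3:43680322-43681913 they were 122 and 108 against 90.3 and 62.7. At the fifth, chr3:43555059-43557324, a peak was called in all 6 libraries while the C2 and C3 libraries and OSKM replicate 1 sat at the 1-read floor, with 5.14 normalized reads in OSKM replicate 2.

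The 3 lines were then compared at every region, to ask where H3K9me3 differed between iPS cells made with artificial factors and those made with Oct4. A region was called when its Benjamini-Hochberg adjusted p in limma, over the whole table of all chromosomes, was under 0.05 both with all regions fitted and with the lowest 25% left out. The p printed is the larger of these. The C2 and C3 comparisons share the OSKM libraries, so a region called in both is not seen independently.

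C2 and OSKM differed at 11 gene-desert regions, with 6 higher and 5 lower in C2. That is 0.0919% of them, against a background of 0.986% of all 68845 regions. Over all regions, 0.0901% were called higher and 0.896% lower. The other regions on the same chromosomes had 56 higher and 150 lower calls (0.454%). At an unadjusted p under 0.05 there were 1289 gene-desert regions (10.8%, against 15.4% of all regions). Among those above the lowest 25%, the median log2 fold change was -0.04, against -0.14 for the other regions, and 9.91% differed by more than 2-fold in either direction, against 12.5%. Over all regions of each kind, those at the floor in every library included, the medians were 0.06 and -0.05, so the sign for gene deserts depended on this filter. Without C2 replicate 1 the count was 872 (127 higher and 745 lower), without C2 replicate 2 it was 431 (127 and 304), and without OSKM replicates 1 and 2 it was 11 (8 and 3) and 15 (13 and 2), so neither the count nor the direction was stable. No region was called with a pseudocount of 8, after quantile normalization or with chromosomes 8, X and Y left out of the fit. In each of these runs the share of gene-desert regions called was below that of all regions.

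The largest of the higher calls sat at the floor in OSKM. At chr15:46085600-46086102 (503 bp), 141 kb from the nearest gene, between Kcnv1, a potassium channel subunit, and Gm41317, there were 45.9 and 58.5 normalized reads in C2 against 0.852 and 0.734 in OSKM. Both OSKM libraries held a single read, so C2 was at least 21.9-fold higher against a floor of 3 reads per library (limma adjusted p = 0.0269). In the C3 table the same region had 35.3 and 30.4 against 0.951 and 0.804, at least 12.5-fold higher (limma adjusted p = 0.00989). Such floors cover counting error only.

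A pair of neighbouring regions rose in C2 in the desert between Cntnap5a, a neuronal adhesion protein gene, and B020011L13Rik on chromosome 1. At chr1:117650909-117651406 (498 bp) the normalized reads were 45.9 and 43.2 in C2 against 0.852 and 0.734 in OSKM, at least 18.7-fold higher (limma adjusted p = 0.0281). At chr1:117651443-117653023 (1581 bp), which starts just beyond it, they were 134 and 107 against 37.5 and 45.5, a log2 fold change of 1.52 ± 0.27 (SE, limma adjusted p = 0.0421). Both were also higher in C3, with 35.3 and 15.2 at the first (at least 9.60-fold higher) and 150 and 144 against 41.8 and 49.8 at the second (log2 fold change 1.67). Neither C2 nor C3 overlapped OSKM at either region.

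The remaining higher calls had reads in every library. At chr7:133442339-133444109, 144 kb from Tex36, the normalized reads were 218 and 261 in C2 against 97.2 and 66.1 in OSKM (log2 fold change 1.56 ± 0.23, limma adjusted p = 0.0273). At chr1:57568252-57569788, 151 kb from the nearest gene between Maip1 and Spats2l, they were 175 and 178 against 68.2 and 64.6 (1.401 ± 0.20, limma adjusted p = 0.0246). At the sixth, chr10:36179395-36182000, 326 kb from Hs3st5, a heparan sulfate sulfotransferase, the log2 fold change was 1.14 (limma adjusted p = 0.0473). In C3 these 3 regions were higher than in OSKM by log2 fold changes of 1.00, 0.88 and 0.91, each called.

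Of the 5 regions that fell in C2, both short ones fell to the floor in C2 alone. At chr6:70461611-70461952 (342 bp), within the array of immunoglobulin kappa segments, the normalized reads were 1.15 and 1.39 in C2 against 52.8 and 48.5 in OSKM, at least 13.3-fold lower (limma adjusted p = 0.0346). In the C3 table they were 51.7 and 48.6 against 58.9 and 53.1, with no call (limma adjusted p = 0.824). At chr14:37410287-37410677 (391 bp), 191 kb from the nearest gene between Ghitm and Gm31393, they were 1.15 and 1.39 in C2 against 29.0 and 19.8 in OSKM, at least 6.40-fold lower (limma adjusted p = 0.049). C3 had 46.5 and 37.97 there against 32.3 and 21.7 in OSKM. In the direct comparison of C2 with C3 neither passed the test (limma adjusted p = 0.0881 and 0.16).

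The broader regions that fell in C2 fell in C3 too. At chr14:40452418-40458239 (5822 bp), 356 kb from Sh2d4b, the normalized reads were 402 and 424 in C2 against 710 and 800 in OSKM (log2 fold change -0.87, limma adjusted p = 0.0446), and 475 and 497 in C3 against 792 and 875 (-0.78, limma adjusted p = 0.000822). At chr1:49882756-49887142, 413 kb from Gm39640, they were 368 and 340 in C2 against 637 and 709 (-0.92, limma adjusted p = 0.0375), and 404 and 415 in C3 against 710 and 777 (-0.86, limma adjusted p = 0.000523). The fifth, chr1:10886736-10889668, lay 105 kb from Prex2, which encodes a Rac exchange factor. It had 151 and 134 in C2 against 254 and 344 in OSKM (-1.05, limma adjusted p = 0.0486), and 215 and 205 in C3 against 283 and 376 (-0.63, limma adjusted p = 0.0301). For C3 the authors' deposited table gives FDR 0.1197 there. In all, 9 of the 11 regions were also called in C3 against the same OSKM libraries.

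**Figure D2:**
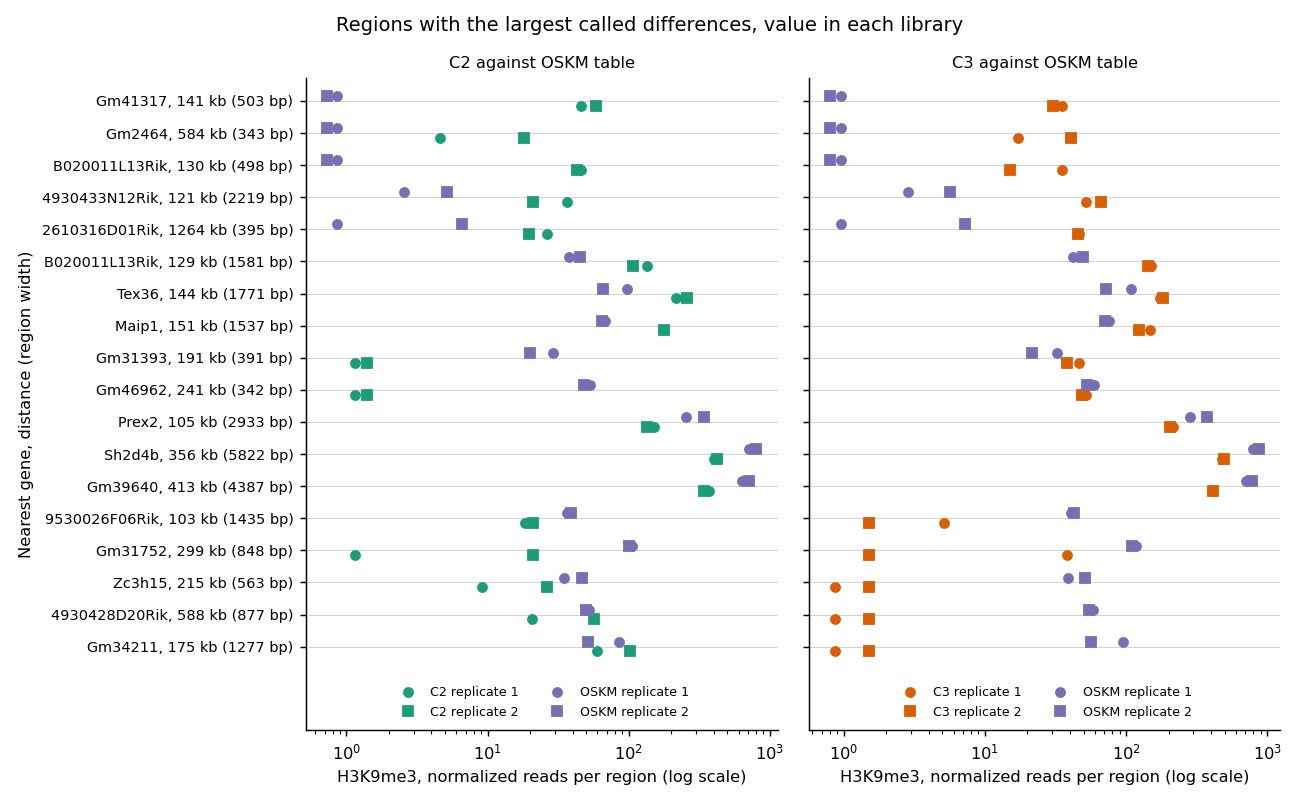
Normalized H3K9me3 reads per library (log axis) at the gene-desert regions named for the largest called changes, one point per library, in the C2 table (left) and the C3 table (right), with regions labelled by nearest gene, distance and width. The floor of 1 read is where both OSKM libraries sit at the top region, near Gm41317, and where both C3 libraries sit at the bottom one, near Gm34211.

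C3 and OSKM differed at 373 gene-desert regions, 206 of them higher and 167 lower in C3. That is 3.12% of the gene-desert regions, against a background of 6.73% of all regions tested. Over all regions, 1.26% were called higher and 5.48% lower. Higher calls made up 55.2% of the calls in gene deserts and 19.7% of the 3298 calls at the other regions on the same chromosomes (650 higher and 2648 lower). Among regions above the lowest 25%, the median log2 fold change was 0.10 in gene deserts and -0.07 elsewhere. Of these, 12.2% of the gene-desert and 16.2% of the other regions differed by more than 2-fold. Over all regions of each kind the medians were 0.17 and -0.0022. At an unadjusted p under 0.05 there were 1903 (15.9%, against 22.5%). In every alternative fit a smaller share of gene-desert regions than of all regions was called. Without C3 replicate 1 the larger number of calls lay on the other side, with 280 higher and 398 lower (678 in all). The count was 106 without OSKM replicate 1 (61 higher and 45 lower) and 94 without OSKM replicate 2 (61 and 33), and it was 0 after quantile normalization, when 1787 had an unadjusted p under 0.05.

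**Figure D3:**
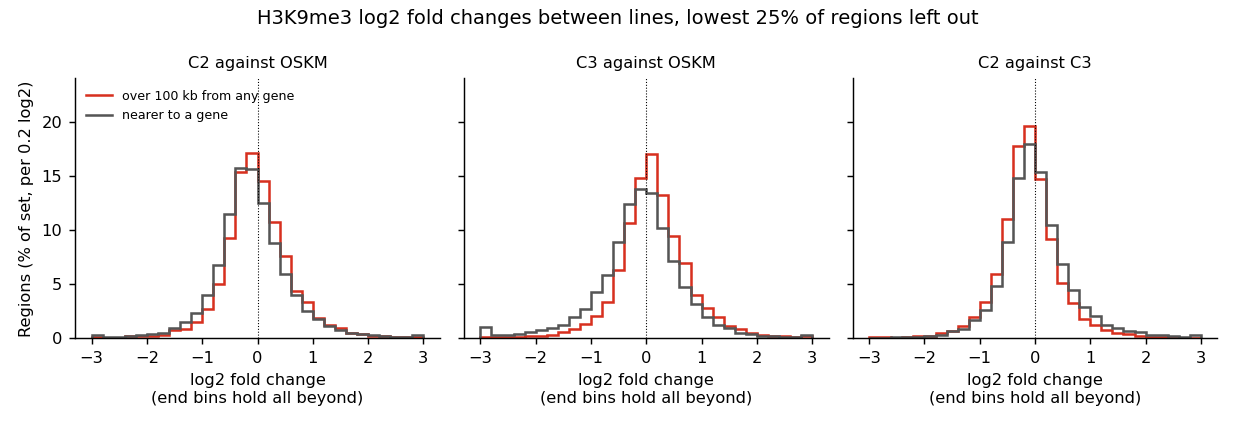
Distribution of log2 fold changes, on the log2(normalized reads + 1) scale, of gene-desert and other H3K9me3 regions in each comparison, with the lowest 25% of regions left out. In C3 against OSKM the gene-desert regions have a median of 0.10 and the other regions -0.07, and in C2 against OSKM the medians are -0.04 and -0.14.

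The 2 directions differed in the kind of region called. The 206 higher regions had a median width of 1583 bp, a mean of 92.8 normalized reads at the median region and a median log2 fold change of 1.12 in size, and 118 of them changed more than 2-fold. The 167 lower regions were wider (median 2933 bp) and higher (247 normalized reads), with a median size of 0.778, and 50 changed more than 2-fold. The higher calls lay on 18 chromosomes and the lower calls on 17. These comparisons describe regions selected by the same test, which reaches smaller changes where reads are more numerous, so no test was run on them.

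The calls changed with distance from genes in number and in direction. Inside genes, 9.61% of 16274 regions were called in C3 against OSKM, with 215 higher and 1349 lower. From 10 to 100 kb the share was 4.95% (333 higher and 690 lower). In the gene deserts it was 3.07% from 100 to 250 kb (110 higher and 87 lower), 3.03% from 250 to 500 kb (56 and 46) and 3.38% beyond 500 kb (40 and 34). The share and the split were thus about level within the deserts themselves. In C2 against OSKM the share went from 0.756% inside genes to 0 of 2188 regions beyond 500 kb by limma. Within the top 25% of all regions by reads, 7.38% of gene-desert and 17.6% of other regions were called in C3 against OSKM.

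**Figure D4:**
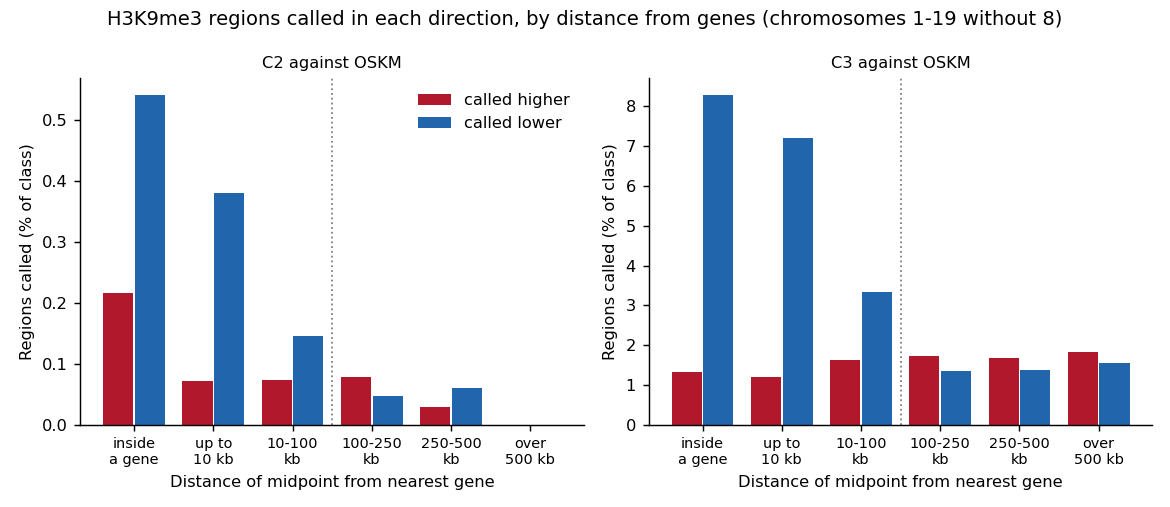
Percent of H3K9me3 regions in each class of distance from the nearest gene that were called higher (red) or lower (blue), for C2 against OSKM (left) and C3 against OSKM (right), with a dotted line at 100 kb. In C3, lower calls outnumber higher calls inside genes (1349 against 215), while beyond 100 kb the higher calls are the more numerous in each class (110 against 87, 56 against 46 and 40 against 34).

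Among the higher calls in C3, the largest besides those already named were again regions at or near the floor in OSKM. At chr3:12886670-12887012 (343 bp), 584 kb from a gene between Gm10745 and Gm2464, C3 had 17.2 and 41.0 normalized reads while both OSKM libraries held 1 read, at least 11.1-fold higher (limma adjusted p = 0.0213). At chr9:3067917-3070135 (2219 bp), near the start of chromosome 9, it had 51.7 and 66.8 against 2.85 and 5.63 (log2 fold change 3.56, limma adjusted p = 0.0036). The widest region, which was lower in C3, lies just before it. At chr3:44016615-44017009 (395 bp), 1264 kb from 2610316D01Rik, it had 46.5 and 45.6 against 0.951 and 7.23 (3.55, limma adjusted p = 0.0144).

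The largest falls in C3 reached the floor. At chr17:82440260-82441536 (1277 bp), 175 kb from the nearest gene between Slc8a1, the cardiac sodium-calcium exchanger, and Gm34211, both C3 libraries held 1 read against 95.1 and 56.3 normalized reads in OSKM, at least 21.2-fold lower (limma adjusted p = 0.001). At chr16:69207999-69208875 (877 bp), 588 kb from a gene between Cadm2, a cell adhesion molecule, and 4930428D20Rik, C3 was again at the floor against 58.0 and 54.7 (at least 15.8-fold lower, limma adjusted p = 0.00197). At chr2:83429560-83430122 (563 bp), between Fsip2 and Zc3h15, OSKM had 39.0 and 51.4 (at least 12.7-fold lower, limma adjusted p = 0.00418). C2 kept reads at the first of these, 59.6 and 102 against 85.2 and 51.4 in OSKM, and at the second, 20.6 and 57.1 against 52.0 and 49.9. At chr2:83429560-83430122 C2 had 9.17 and 26.5 against 34.9 and 47.0, below both OSKM libraries. That difference did not pass the test (log2 fold change -1.31, limma adjusted p = 0.25). H3K27ac peaks overlapped each of these regions in both C3 and both OSKM libraries.

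At 2 more regions C3 had few reads left. At chr5:18793956-18794803 (848 bp) it had 37.9 and 1.52 normalized reads against 117 and 110 (log2 fold change -3.53, limma adjusted p = 0.0286), so its libraries differed widely. C2 had 1.15 and 20.9 there against 105 and 101, which did not pass the test (-3.92, limma adjusted p = 0.0939). At chr1:61498499-61499933 (1435 bp), nearest to 9530026F06Rik, C3 had 5.17 and 1.52 against 40.9 and 42.6 (-3.44, limma adjusted p = 0.0118). H3K27ac peaks covered the whole of both regions in both C3 libraries. In OSKM they covered 0 and 425 bases of the first and 1341 and 1283 of the second.

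C2 and C3 differed at 1 gene-desert region (0.00835%), against a background of 0.100% of all regions (0.0349% higher and 0.0654% lower). It was chr17:82440260-82441536, higher in C2 with 51.9 and 89.8 normalized reads against 0.687 and 1.18 in C3. As both C3 libraries held 1 read, C2 was at least 25.2-fold higher (limma adjusted p = 0.0133). Other regions on the same chromosomes had 23 higher and 5 lower calls. At an unadjusted p under 0.05 there were 931 gene-desert regions (7.78%, against 9.16% of all regions). The count of calls was 114 without C2 replicate 1, 8 without C3 replicate 1 and 3 without either of the others.

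H3K27ac was present at a minority of the gene-desert H3K9me3 regions. In C2 11.5% and 5.12% of them overlapped an H3K27ac peak, in C3 16.1% and 12.7%, and in OSKM 10.62% and 12.03%. Each was below the share for the other regions in the same library (13.5%, 6.28%, 18.0%, 14.8%, 11.9% and 12.8%), by 1.55 percentage points on average (exact two-sided sign-flip permutation test, 6 of 6 libraries below, p = 0.03125, adjusted p = 0.0625, which does not pass 0.05). A peak in both libraries of a line was found at 595 regions (4.97%) in C2, 1448 (12.1%) in C3 and 1146 (9.57%) in OSKM. At least 1 line had such a peak at 1563 (13.1%), and 9867 (82.4%) had no H3K27ac peak in any of the 6 libraries. The acetylated regions were wider, with a median of 1531 bp against 983 bp, and had fewer H3K9me3 reads, with a median of 8.63 normalized reads against 32.4.

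Acetylated and unacetylated regions differed in the direction of their calls in C3 against OSKM. Of the 1563 acetylated gene-desert regions, 6 were called higher and 87 lower (5.95%, against a background of 13.9% of all acetylated regions). Of the 9867 with no H3K27ac peak, 197 were called higher and 64 lower (2.65%, against 5.38% of all regions with no such peak). The acetylated regions thus held 52.1% of the lower calls and 2.91% of the higher calls. Elsewhere on these chromosomes, the 6788 acetylated regions had 67 higher and 990 lower calls (15.6%). The 36154 with no H3K27ac peak had 554 and 1443 (5.52%). Both kinds were thus called less often in gene deserts than elsewhere. The acetylated regions had a median of 8.63 normalized H3K9me3 reads in gene deserts and 25.6 elsewhere, and fewer changes can be detected at lower levels. For regions with no H3K27ac peak these medians were 32.4 and 34.6. The split in direction was looked for after the calls were seen and was given no test. Without C3 replicate 1 the regions with no H3K27ac peak had 271 higher and 205 lower calls, a much closer split, and the acetylated regions had 4 and 158. Without OSKM replicate 1 the regions with no H3K27ac peak had 57 and 12 and the acetylated ones 2 and 29. Without OSKM replicate 2 these were 58 and 7, and 0 and 23 by limma. After quantile normalization no region of either kind was called.

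**Figure D5:**
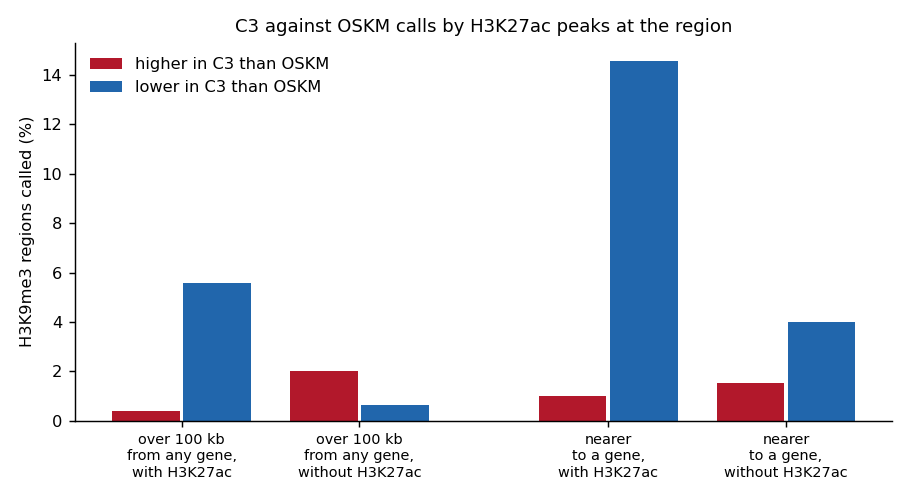
Percent of H3K9me3 regions with higher (red) and lower (blue) calls for C3 against OSKM, in gene deserts and nearer to genes, by whether the region had an H3K27ac peak in both libraries of at least 1 line or in no library. In gene deserts the bars stand for 197 higher and 64 lower calls without H3K27ac, and 6 higher and 87 lower with it.

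The acetylated regions with the most H3K9me3 reads are given next. Their means of 841 to 1093 normalized reads lie far above the median of 8.63 for acetylated gene-desert regions. They are thus not typical of these, whose median log2 fold change in C3 against OSKM was -0.02. At chr11:28035041-28043454, 346 kb from the nearest gene between the kinase gene Vrk2 and Ccdc85a, H3K9me3 was 869 and 767 normalized reads in C3 against 1418 and 1543 in OSKM (log2 fold change -0.86 ± 0.11, limma adjusted p = 0.000232). H3K27ac at its edge, chr11:28035131-28036224, was also lower, with 15.1 and 31.6 normalized reads in C3 against 67.3 and 111 in OSKM, and 12.6 and 1.28 in C2 against 62.0 and 102. The authors' deposited table gives log2 fold changes of -1.94 (FDR 0.00373) for C3 and -3.56 (FDR 7.97e-05) for C2 at that H3K27ac region. Both marks were thus lower in C3 than in OSKM at this place. In C2, H3K9me3 was 738 and 836 against 1272 and 1410, which did not pass the test (-0.77, limma adjusted p = 0.0817).

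The region chr1:102259239-102269019 (9781 bp) lies in the desert between Gm31973 and Gm41924 and over the pseudogene Gm3116. There the 2 marks were judged by different tests. H3K9me3 passed limma in C3, where the authors' deposited table gives FDR 0.0526, and H3K27ac passed the authors' test in C2. H3K9me3 was 806 and 891 normalized reads in C3 against 1226 and 1281 in OSKM (log2 fold change -0.56 ± 0.11, limma adjusted p = 0.00261). H3K27ac at chr1:102261306-102266205 was 518 and 247 normalized reads in C3 against 464 and 602, for which the authors' deposited table gives -0.48 (FDR 0.693). In C2 the H3K27ac was 74.0 and 28.2 against 427 and 553, and the authors' deposited table gives -3.26 (FDR 4.45e-06). H3K9me3 in C2 was 661 and 793 against 1099 and 1170 and did not pass the test (-0.65, limma adjusted p = 0.128).

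The region chr11:13009992-13016954, 548 kb from the nearest gene between Cobl, an actin nucleator, and Gm30770, had 719 and 706 normalized H3K9me3 reads in C3 against 1292 and 1279 in OSKM (log2 fold change -0.85 ± 0.11, limma adjusted p = 0.000142). H3K27ac at chr11:13002122-13011383 was high in every library, with 1869 and 1088 normalized reads in C3 against 2779 and 2772 in OSKM, and 832 and 638 in C2 against 2558 and 2548. The authors' deposited table gives -0.91 (FDR 0.148) for C3 and -1.80 (FDR 0.000389) for C2. At chr1:35216119-35222413, 340 kb from the nearest gene between Plekhb2 and 1110002O04Rik, H3K9me3 was 754 and 819 in C3 against 1151 and 1180 (-0.57, limma adjusted p = 0.00243). H3K27ac at chr1:35218922-35223297 overlapped between these lines, with 420 and 297 in C3 against 256 and 514 in OSKM. In C2 it was 219 and 131 against 236 and 473. The authors' deposited table gives -0.10 (FDR 0.9495) for C3 and -1.02 (FDR 0.254) for C2. The fifth, chr1:5341923-5350814, met little H3K27ac (15.1 and 1.28 normalized reads in C2 against 13.2 and 9.13 in OSKM), at one end, and its H3K9me3 was not called. In all 4 called regions, both C3 libraries were below both OSKM libraries, which a call of lower largely implies.

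The 5 gene deserts with the most regions held 26 calls in C3 against OSKM among 565 regions (4.60%, against 3.12% of all gene-desert regions). The desert between D3Ertd751e and 2610316D01Rik (chromosome 3, 41803308 to 45280438, 3.48 Mb) held 138 regions, 42.1 per Mb, of which 53 had a peak in all 6 libraries. In C3 against OSKM 3 of its regions were higher and 0 lower by limma. Its reads per 1000000 region reads were 2862 and 2426 in C2, 2973 and 2977 in C3, and 2544 and 2603 in OSKM, so both C3 libraries were above both OSKM libraries. The desert between Gm32710 and 4930568E12Rik on chromosome 9 was denser, with 132 regions in 2.18 Mb (66.6 per Mb), and had 6 higher and 3 lower calls. The desert between Gm31973 and Gm41924 on chromosome 1 had 119 regions, with 0 higher and 6 lower, and the one between Gm10745 and Gm2464 on chromosome 3 had 89, with 3 higher and 0 lower. The desert between Vrk2 and Ccdc85a on chromosome 11 had 87 regions, with 1 higher and 4 lower. None of these 5 deserts held a call in the other comparisons.

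The calls in C3 against OSKM were spread over 198 deserts, 43 of which had at least 3. The 4 deserts named next were chosen after their values were seen. The desert between Cobl and Gm30770 had the most calls, 3 higher and 7 lower among 70 regions. In the desert between Gm31752 and 4921504A21Rik on chromosome 5, C3 had 7 lower and 0 higher calls by limma among 26 regions. At chr5:18795138-18796344, for example, C3 had 24.1 and 12.1 normalized reads against 114 and 131 in OSKM (log2 fold change -2.76 ± 0.40, limma adjusted p = 0.00108). That desert had 504 and 609 reads per 1000000 region reads in C2, 505 and 511 in C3, and 676 and 710 in OSKM, with the OSKM libraries above all others.

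The opposite was seen between Bpnt2 and 4930423M02Rik on chromosome 4, where C3 had 5 higher and 0 lower calls by limma among 43 regions. Reads per 1000000 region reads there, over the same total, were 1419 and 1164 in C2, 1528 and 1592 in C3, and 1099 and 1159 in OSKM. C3 was thus above OSKM in both libraries. Calls of both directions could stand close together. In the desert between Cntnap5a and B020011L13Rik, where a pair of neighbours rose in C2 and C3, chr1:117454945-117458330 was lower in C3 (311 and 327 normalized reads against 688 and 774 in OSKM, log2 fold change -1.19 ± 0.13, limma adjusted p = 0.000102). The next region, chr1:117460104-117464701, was lower as well (273 and 304 against 530 and 581, -0.94). In all, 3 of its 51 regions were higher and 3 lower.

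HA peaks touched a slightly larger share of gene-desert regions than of other regions in each of the 4 HA libraries, Empty+SKM included. They touched 6.31% and 15.5% of the gene-desert regions in the C2 libraries and 4.57% and 10.6% in the Empty libraries, which give the background. For the other regions the shares were 5.17%, 12.2%, 3.78% and 8.09%. The difference averaged 1.94 percentage points and was above 0 in 4 of 4 libraries (exact two-sided sign-flip permutation test, p = 0.125, the smallest that 4 libraries allow), so the design could not place it past 0.05. These libraries kept only 1629753 to 3896935 tags, with 0.92 to 0.94 of all tags redundant, which limits what they can show. Both C2 libraries and neither Empty library had a peak at 144 regions (1.203%, against 0.999%), both Empty libraries and neither C2 library at 27 (0.226%), and all 4 libraries at 182 (1.52%).

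Of these 144 regions, limma called 0 in each of the 3 comparisons of H3K9me3, against backgrounds of 0.986%, 6.73% and 0.100% of all regions. Their median level was 4.45 normalized reads, at which few changes can be detected. Elsewhere on these chromosomes, 2 higher and 14 lower calls in C3 against OSKM were found among 453 regions with such HA peaks (3.53%, at a median of 5.95 normalized reads). Of the 144 gene-desert regions, 10 had an unadjusted p under 0.05 in C2 against OSKM and 12 in C3 against OSKM. In C2 against C3 the number was 15. The shares of all regions were 15.4%, 20.7% and 9.16%. With edgeR on recovered reads, 0, 2 and 0 of the 144 were called, against 1.05%, 10.4% and 0.812% of all regions. Those with the most H3K9me3 reads were broad. They were chr13:4899952-4906312 (6361 bp, 158 kb from Gm40658), chr9:12019680-12028438 (8759 bp, 1067 kb from 4930568E12Rik), chr9:6803629-6812002 (8374 bp, nearest to Dync2h1, a ciliary dynein heavy chain), chr9:11630103-11635636 (5534 bp, 723 kb from Gm32710) and chr1:27179058-27188140 (9083 bp, 409 kb from Gm31136). At the first, H3K9me3 was 440.2 and 284 normalized reads in C2 against 462 and 484 in OSKM, and 546 and 536 in C3 against 515 and 529.7 (limma adjusted p = 0.307 and 0.835). HA peaks of the C2 libraries covered 293 and 248 bases of the first and 999 and 1549 bases of the last. None of the 5 had an H3K27ac peak.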

How the data were processed

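ChIP-seq files of 16 of 22 samples were used, and the other 6, inputs, were not analysed here. Per the submitters' processing notes, the authors' tools were Bowtie2 2.2.5, DiffBind 1.16.2, CASAVA 1.8.2 and SAMtools 1.3, on mm10. Per the file headers, peaks were called per library against 1 input with MACS 2.1.0.20150731 (histone marks) or 2.1.1.20160309 (HA) at a q-value of 0.01. The deposited peak files give pileup as a signal, fold enrichment as a ratio and -log10 p- and q-values. The authors' deposited region tables give, per library, a signal (reads per region over a library factor, at least 1 read), and per region the FDR, p-value and log2 fold change of their own comparison. Whether control reads were subtracted is not given in the sources used here. Dividing by the lowest value gave whole reads for 100% of values (tolerance 1e-06). These reads were used for shares, reads per kb and edgeR, and are net of any subtraction.

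Gene extents (34631 protein-coding or lncRNA) came from the RefSeq table of GRCm38.p6, which is mm10. Each table was fitted with limma 3.58.1 (trend, R 4.3.3) on log2(normalized reads + 1), so fold changes of low regions are understated, and adjusted over all 68845 regions. Tables were normalized separately. The fit was tested on simulated data. A fold against a line at the floor used 3 reads per library. Overlap meant at least 1 bp. Alternatives included a pseudocount of 8, quantile and median scaling, edgeR 4.0.16, other distances and leaving out libraries. Other steps used Python 3.11.15, pandas 2.3.3, NumPy 2.4.6 and matplotlib 3.10.9.

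Named regions were the 5 farthest with a peak in all 6 libraries, the 5 highest, the 3 widest, up to 5 called each way per comparison by fold change, and the 5 highest with HA or H3K27ac peaks as defined in the text, plus the 5 deserts with most regions. The members and lists were chosen with earlier results of these data known. Same-numbered replicates are not said to be paired.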

Additional observations from a re-analysis of the deposited data

Results flagged for a closer look

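The region chr17:82440260-82441536, between Slc8a1 and Gm34211, differed between the lines made with artificial factors. In C2 it had 59.6 and 102 normalized H3K9me3 reads against 85.2 and 51.4 in OSKM (log2 fold change 0.23, limma adjusted p = 0.789), while in C3 both libraries held 1 read against 95.1 and 56.3 (log2 fold change -5.10 ± 0.82, limma adjusted p = 0.001). The direct comparison of C2 with C3 gave a fitted log2 fold change of 5.17 ± 0.92 (SE, limma adjusted p = 0.0133), higher in 2 of 2 libraries. The adjusted p ranged from 2.27e-13 in the authors' deposited table to 0.458 without C2 replicate 2, and it was 0.121 with a pseudocount of 8, 0.358 after quantile normalization and 0.0559 without chromosomes 8, X and Y. A peak was called there in 3 of the 6 H3K9me3 libraries. H3K27ac peaks lay there in all 6 libraries. They covered the whole 1277 bp in both C3 libraries, 982 and 878 bases in C2, and 643 and 1170 in OSKM. C3 had its own input, which cannot be told apart from the line.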

How the results depend on the processing

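The counts of called gene-desert regions depended strongly on the processing, and no called region named for its fold change changed direction under any alternative run. For C2 against OSKM (11) the count was 0 with a pseudocount of 8 (1169 at an unadjusted p under 0.05), after quantile normalization (1061) and without chromosomes 8, X and Y (1198). It was 39 with all regions alone (34 higher, 5 lower), 71 with the lowest 25% left out alone (19 higher, 52 lower), 22 with edgeR (18 higher, 4 lower), 315 in the authors' deposited table (211 higher, 104 lower), 18 beyond 50 kb, 4 beyond 200 kb and 23 from protein-coding genes alone, and 11 to 872 with 1 library left out. Median-centring gave 6 higher and 2 lower. For C3 against OSKM (373) it was 0 after quantile normalization, 660 with all regions alone, 682 with edgeR, 782 in the authors' deposited table (546 higher, 236 lower), 601 beyond 50 kb, 217 beyond 200 kb, 623 from protein-coding genes alone and 94 to 678 with 1 library left out, the highest of these with 280 higher and 398 lower. For C2 against C3 (1) it was 0 with a pseudocount of 8 (809), after quantile normalization (718), without chromosomes 8, X and Y (839) and beyond 200 kb, 22 with all regions alone, 32 with edgeR, 40 in the authors' deposited table, 2 beyond 50 kb, 2 from protein-coding genes alone and 3 to 114 with 1 library left out. Of the 373 regions called in C3 against OSKM, 266 were also called in the authors' deposited table. In that table and in every alternative fit, a smaller share of gene-desert regions than of all regions was called. In the authors' table these shares were 2.63% and 4.91% for C2 against OSKM. They were 6.53% and 9.80% for C3 against OSKM, and 0.334% and 0.995% for C2 against C3. Leaving out 1 library leaves a line with a single library, assumed to vary like the other line. Edges of 50 kb, 200 kb or protein-coding genes alone change how many regions are counted, and for the other alternatives the cause was not tested. Of the 10 regions named by fold change in C2 against OSKM, all 10 lost their call with a pseudocount of 8, after quantile normalization and without chromosomes 8, X and Y, and 5 without either OSKM replicate. Of the 10 in C3 against OSKM, all 10 lost it after quantile normalization, 8 without OSKM replicate 1 and 6 without OSKM replicate 2.

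With the replicate number as a block, the counts were 152 (44 higher, 108 lower), 639 (368 higher, 271 lower) and 29. Deviations of same-numbered libraries correlated at 0.0024 (C2 and OSKM), 0.0354 (C3 and OSKM) and 0.1074 (C2 and C3) over all regions above the lowest 25%, and no label pairs them.

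The share of reads in gene deserts, C2 minus OSKM (1.34 points), was 0.839 without the highest 1% of regions, 1.797 beyond 50 kb, -2.40 from protein-coding genes alone and 1.74 without the 2 highest regions (an alternative chosen after seeing the data). For C3 minus OSKM (2.85) these were 2.12, 3.95, -3.68 and 3.43, with 2.06 beyond 200 kb. C2 minus C3 (-1.51) was -2.15 beyond 50 kb, -0.981 beyond 200 kb and 1.28 from protein-coding genes alone. With 1 library left out the ranges were 0.946 to 1.73, 2.73 to 2.96 and -1.90 to -1.11. When at least 0.5 of a region had to be covered, the mean share with a peak went from 71.7% to 51.4% for H3K9me3, from 11.3% to 2.64% for H3K27ac, from 10.9% to 1.08% for HA in C2 and from 7.59% to 0.664% for HA in Empty, which was 3.29% at a -log10 q of at least 5.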

Other observations

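The immune receptor arrays, which count as gene desert under the rule, were followed on their own after their number was seen. Of their 222 regions, 2 were higher and 5 lower in C3 against OSKM by limma (3.15%, close to the 3.12% of all gene-desert regions), spread over chromosomes 6 (2 and 2), 12 (0 and 2) and 14 (0 and 1), and 1 on chromosome 6 was lower in C2 against OSKM. Without these regions, 366 of the remaining gene-desert regions were called in C3 against OSKM and 10 in C2 against OSKM.

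Calls were also counted by width and by breadth of peak calling. Of the 724 at least 5 kb wide, 24 were higher and 32 lower in C3 against OSKM (7.73%), while other regions of that width on the same chromosomes had 80 higher and 369 lower (16.1%). Among the 4546 with a peak in all 6 libraries, 97 were higher and 118 lower (4.73%), against 288 and 1547 (11.2%) of such regions elsewhere. Of the 557 gene-desert regions with H3K27ac in both libraries of all 3 lines, 2 were higher and 29 lower (5.57%), against 21 higher and 483 lower (21.1%) of such regions elsewhere. The regions acetylated in all 3 lines had a median of 2.15 normalized H3K9me3 reads in gene deserts and 11.7 elsewhere. Fewer changes can be detected at such low levels. No test was run on any of these counts.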
